A study of Mus musculus with 35 samples.

Results

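Podocytes of bortezomib-treated Lmx1b C118F/lox mice were compared with those of bortezomib-treated Lmx1b+/lox controls, called WT in the labels. The question was which genotype differences in gene expression are present when the proteasome inhibitor is on board. The comparison covers 5 C118F and 6 WT mice out of the 35 mice of the series. A gene entered the comparison if all C118F or all WT mice had it at over 1 TPM, and 10916 of the 33292 genes in the table did. TPM (transcripts per 1000000 transcripts) corrects the reads of a gene for its length and for the depth of the library.

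All 11 mice carried the same additions, a Cre recombinase switched on in podocytes by doxycycline (an rtTA transgene active in podocytes and tetO::Cre), the mT/mG reporter that turns Cre-active cells green, and 1 floxed Lmx1b allele that loses the exons for the homeodomain. The WT mice hold a normal second allele, so they too are heterozygous after recombination, whereas in C118F mice the only allele left encodes the C118F protein, in which a cysteine of the second LIM domain is replaced by phenylalanine. Mice of 7 to 10 weeks drank water with 2 mg/ml doxycycline for 7 days, were injected with bortezomib (0.3 µg per g of body weight, in DMSO) on alternate days from its start, and the green cells were sorted and their poly(A) RNA sequenced. Reads of Lmx1b come from both alleles and were not told apart. In RNA pooled from sorted cells, a change in the make-up of the sorted cells and a change of RNA per cell cannot be told apart.

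LMX1B is a LIM homeodomain transcription factor that podocytes, the epithelial cells that cover the glomerular capillaries with interlocking foot processes, need to keep their differentiated state. Its LIM domains bind zinc and partner proteins, its homeodomain binds DNA, and the cysteine lost in C118F is one of the zinc ligands of LIM-B, the second LIM domain. Bortezomib blocks the proteolytic sites of the proteasome, the complex that degrades ubiquitinated proteins. Injured podocytes are known to lose slit diaphragm and foot process proteins, to assemble other actin-binding proteins, and to change the basement membrane they produce.

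The sorted cells had the markers of podocytes in every mouse. TPM of Podxl, which encodes the sialoprotein podocalyxin of the podocyte surface, lay between 2682 and 3706 in C118F and between 6540 and 9338 in WT mice, and TPM of Nphs1 (nephrin) lay between 150 and 186 and between 126 and 323. Ptprc, which marks leukocytes, was at most 0.0637 TPM. The reads recovered from the steps of the TPM values summed to between 16917328 and 23568587 per WT mouse and to between 5264711 and 23967369 per C118F mouse. The lowest sum belonged to C118F replicate 2, without which 156 genes in place of 166 were called higher and 46 in place of 45 lower.

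By a strict rule (adjusted p under 0.001, log2 change beyond 2 in size), 166 genes were higher in C118F than in WT mice, 1.52% of those tested, and 45 were lower, 0.412%. The log2 change is the difference of the group means of log2(TPM + 1), C118F minus WT, and each adjusted p is from limma with Benjamini-Hochberg adjustment over all genes tested. In the 166 higher genes the median log2 change was 2.54, and in 53 of them it exceeded 3. The 45 lower genes had a median of -2.53. Of these 211 calls, 196 concerned protein-coding genes, 13 lncRNA genes and 2 identifiers that GENCODE vM39 does not list. The values of the 5 C118F and 6 WT mice did not overlap for 163 of the 166 higher and for all 45 lower genes, against 15.7% of the genes tested. The strict rule picks genes whose groups lie apart in these same mice, so this lack of overlap is no separate support. With the fold requirement dropped and an adjusted p under 0.05, 1653 genes (15.1%) were higher and 1349 (12.4%) lower, and the log2 change over all genes tested had a median of 0.00. Where a gene list is described below, its counts are those at an adjusted p under 0.05. The shares of 15.1% and 12.4% over all genes are to be set beside those counts.

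Lmx1b itself (ENSMUSG00000038765, chr2:33450977-33531093, minus strand, GRCm39) was expressed in both groups. TPM was 67.5, 128, 123, 152 and 145 in the C118F mice, with a lowest value of 54.8, a median of 88.1 and a highest value of 125 in WT mice. The groups overlapped, and the log2 change of 0.46 ± 0.22 (SE) did not pass (adjusted p = 0.14). A single C118F mouse, replicate 1, was low. Without it the log2 change was 0.66 and passed an adjusted p under 0.05. With all mice and mouse number as a covariate the log2 change was -0.0096. The sum over both alleles does not check the knock-in itself.

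**Figure D1:**
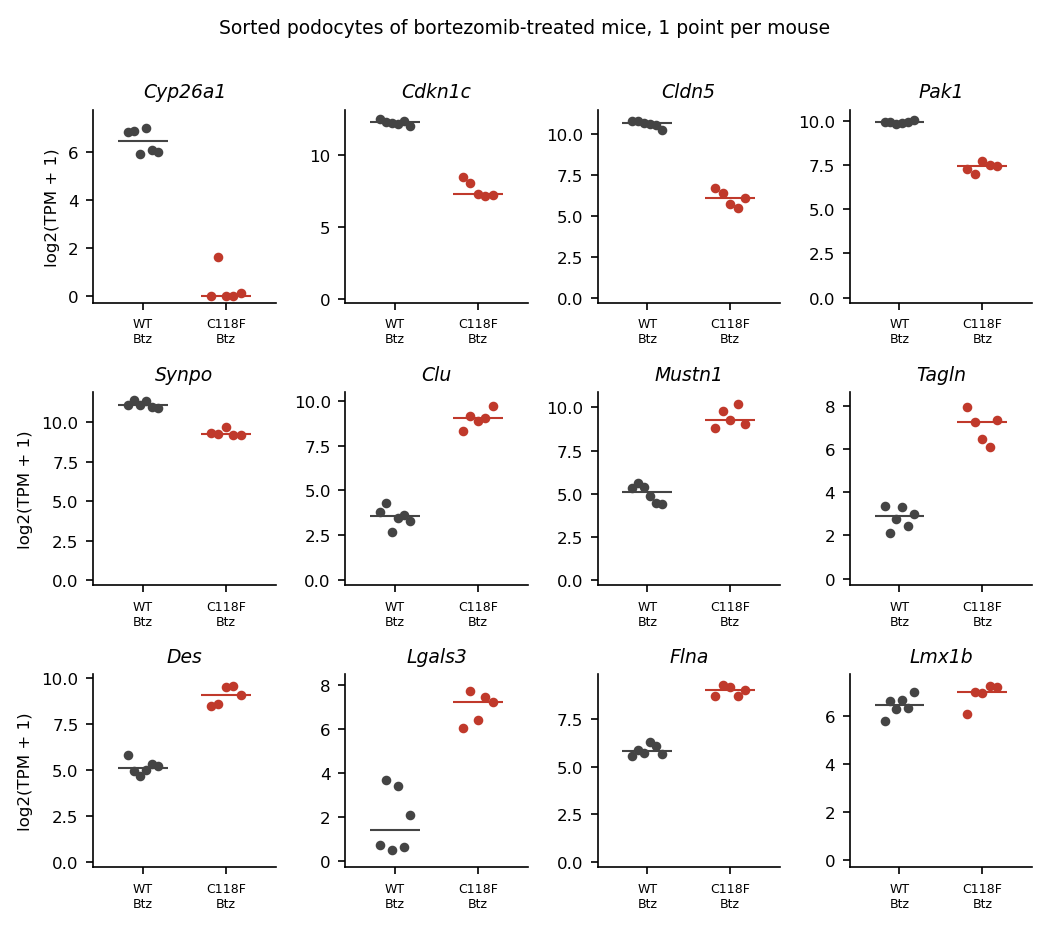
Level of 12 genes in bortezomib-treated mice on the log2(TPM + 1) scale, with 1 point per mouse for 6 WT and 5 C118F mice and a line at the group median. Both groups overlap for Lmx1b and are apart for the other 11 genes, with Cyp26a1 listed at 0 in 3 C118F mice.

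Cyp26a1, which encodes the enzyme that clears retinoic acid, had the largest fall of the comparison. The gene (ENSMUSG00000024987) lies at chr19:37686241-37689984 on the plus strand, and its TPM was 0, 2.06, 0, 0 and 0.0841 in C118F mice against 59.6 (lowest), 89.1 (median) and 126 (highest) in WT mice. Nearly all of the C118F signal came from replicate 2, and the gene fell by 6.09 ± 0.31 on the log2 scale (adjusted p = 8.9e-09). The stretch upstream of the gene holds a direct repeat of TGAACT spaced by 5 bases (TGAACTNNNNNTGAACT), the form of site that retinoic acid receptors bind, and it is shown because the gene is an induced target of retinoic acid as well as its degrader. Capitals mark the repeat in the 235 bases at chr19:37686006-37686240 of GRCm39, plus strand, 5′ to 3′, from the RefSeq promoter table (GRCm38.p6), located in GRCm39 by an exact and unique match:
Cyp26a1: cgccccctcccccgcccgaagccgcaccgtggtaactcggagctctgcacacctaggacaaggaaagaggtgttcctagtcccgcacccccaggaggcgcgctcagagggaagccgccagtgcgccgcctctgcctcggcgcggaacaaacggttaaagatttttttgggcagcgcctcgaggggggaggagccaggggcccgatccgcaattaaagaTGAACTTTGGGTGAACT
Searched on both strands, the repeat occurs in 7 of 32851 promoter windows of 250 bases, or 0.0213%. A match is a description of the letters and not of a bound site.

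Retinoic acid genes moved in both directions. Of 14 tested, 4 rose and 3 fell, with a median log2 change of -0.02. Rarres1, a gene induced by retinoids, fell by 1.37 ± 0.11 (adjusted p = 5.2e-07), from a WT median of 687 TPM to between 234 and 332. Dhrs3, an enzyme that turns retinal back to retinol, fell by 1.18 (adjusted p = 0.034). Rdh10, which makes retinal from retinol, rose by 2.03 ± 0.20 (adjusted p = 5e-06) and Rxra, a nuclear receptor subunit, by 1.10 ± 0.20 (adjusted p = 0.00096). The synthesis enzymes Aldh1a2 and Aldh1a3 were tested and did not pass.

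Cdkn1c and Cldn5, abundant in WT podocytes, fell as well. Cdkn1c (ENSMUSG00000037664, chr7:143012069-143014806), the inhibitor p57 that holds podocytes out of the cell cycle, had 348, 261, 154, 139 and 146 TPM in C118F mice and 4156, 4834 and 5571 TPM as the lowest, median and highest WT value, a log2 change of -4.62 ± 0.21 (adjusted p = 4.4e-09). Cldn5 (ENSMUSG00000041378, chr16:18595597-18597012), the claudin of podocytes, had 103, 84.8, 52.4, 43.6 and 68.8 TPM against 1232, 1594 and 1783 TPM, a log2 change of -4.52 ± 0.19 (adjusted p = 1.4e-09). In both genes the highest C118F mouse lay far below the lowest WT mouse.

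The other large falls hold genes of several functions. Snx31, a sorting nexin, fell by 4.17 ± 0.33, Rassf2, a Ras-association protein, by 3.63 ± 0.26, and Hs3st6, a heparan sulfate sulfotransferase, by 3.60 ± 0.14. Hs3st6 had 38.9 to 68.8 TPM in C118F and 553 to 786 TPM in WT mice. Fgfbp1, a carrier of fibroblast growth factors, fell by 3.52 ± 0.41, with 3.59 to 11.2 TPM against 26.1 to 181 TPM. Plk5, of the polo-like kinase family, was listed at 0 in 3 of 5 C118F mice and had 5.69 to 11.9 TPM in WT mice. BB014433 and Gm45274 fell by 3.66 ± 0.30 and 3.25 ± 0.34, and the annotation places them on opposite strands of chromosome 8 with 131 bases between them. ENSMUSG00000113029, which GENCODE vM39 does not list, fell by 3.86 ± 0.23. The adjusted p of these 8 genes ranged from 1.1e-09 for Hs3st6 to 2.1e-05 for Fgfbp1. H2-Q7, a class I histocompatibility gene, fell by 3.61 ± 0.56 (adjusted p = 0.00025) and its neighbour H2-Q6 by 3.24 ± 0.62 (adjusted p = 0.0013). Reads of these near-identical copies could be split between them by the alignment, so their separate values are uncertain.

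Among the genes that define podocytes, 8 of 10 fell and none rose, with a median log2 change of -1.33. Synpo, which encodes the actin-associated foot process protein synaptopodin, had 637, 609, 836, 588 and 578 TPM in C118F mice and at least 1932 TPM in WT mice (-1.81 ± 0.13, adjusted p = 1.7e-07). Every C118F mouse lay below every WT mouse. Ptpro, a podocyte receptor phosphatase, fell by 1.72 ± 0.17 (adjusted p = 4.8e-06), Magi2, a scaffold of the slit diaphragm, by 1.34 ± 0.15 (adjusted p = 1.2e-05) and Podxl by 1.31 (adjusted p = 1.6e-05). The 2 that did not pass were Nphs1 (-0.31, adjusted p = 0.26) and Nes (-0.27, adjusted p = 0.12).

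The wider list of slit diaphragm and foot process genes was mixed, with 12 of 40 lower, 7 higher and 21 that did not pass, and a median of -0.10. Rhpn1, a protein of the podocyte cytoskeleton, fell by 2.08 ± 0.32 (adjusted p = 0.00022). Those that rose include Itgb1 (0.96, adjusted p = 0.00016), the β1 integrin chain that anchors podocytes, Actn4 (1.06, adjusted p = 0.0002), an actin crosslinker, and Dag1 (0.74, adjusted p = 0.00065), the matrix receptor dystroglycan. Cd2ap, Kirrel1, Fat1 and Itga3 did not pass, with log2 changes of 0.21, 0.24, 0.15 and -0.11.

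Of the transcription factors and cofactors known from podocytes, 7 of 27 were lower and 2 higher. Lmo4, a LIM-only protein, fell by 1.48 ± 0.14 (adjusted p = 3.2e-06) and Zhx1, a zinc finger and homeobox protein, by 0.72 ± 0.10 (adjusted p = 0.00015). Foxc2, Tcf21 and Wt1 fell by 1.04, 0.68 and 0.71 (adjusted p = 0.0017, 0.004 and 0.02). The groups overlapped for Wt1, with 107 to 218 TPM against 175 to 440 TPM. Sox4 rose by 2.03 ± 0.26 (adjusted p = 4.8e-05). Ldb1, the cofactor that LIM domains bind, was tested and did not pass.

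Contractile and actin-binding genes were mostly higher in C118F mice. Of 41 tested, 27 were higher and 4 lower, with a median log2 change of 0.93 against 0.00 over all genes. A listed gene that passed the TPM minimum only in the group where it was high had to differ, and with no minimum the counts over all 51 listed were 26 and 3 and the median 0.56. Flna, the actin crosslinker filamin A (ENSMUSG00000031328, chrX:73265347-73293456), had 422, 620, 587, 414 and 533 TPM in C118F and 46.0 to 78.8 TPM in WT mice, a log2 change of 3.12 ± 0.15 (adjusted p = 4.8e-09). Mustn1, a small nuclear protein of muscle and skeleton, had 445, 883, 613, 1174 and 526 TPM against at most 47.4 TPM (4.41 ± 0.27, adjusted p = 5.3e-08). Tagln, the smooth muscle actin-binding protein SM22 (chr9:45840909-45847404), had 244, 153, 87.2, 66.2 and 159 TPM against 3.27 to 9.17 TPM (4.19 ± 0.31, adjusted p = 2.7e-07). None of these 3 overlapped between the groups.

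The other contractile genes that rose by more than 2 on the log2 scale were Csrp1, a LIM protein of actin bundles (3.18 ± 0.32, adjusted p = 4.3e-06), Myl9, a regulatory myosin light chain (2.79 ± 0.35, adjusted p = 3.6e-05), Tpm2, a tropomyosin (2.36 ± 0.34, adjusted p = 0.00012), Tes, a focal adhesion protein (2.24 ± 0.17, adjusted p = 3.8e-07), and Pdlim4 (3.69, adjusted p = 0.003). Pdlim5, which links α-actinin to kinases, rose by 1.70 ± 0.11 (adjusted p = 5.9e-08). Acta2, smooth muscle actin, rose by 1.99 (adjusted p = 0.012), with 5.61 to 16.2 TPM against 0.388 to 15.2 TPM. The list also holds a fall of the same order, that of Pak1, a kinase acting on actin turnover, which had 154, 128, 211, 182 and 169 TPM in C118F and 890 to 1060 TPM in WT mice (-2.53 ± 0.12, adjusted p = 4.4e-09). Cnn3, Pdlim2 and Csrp2 were lower too, by 0.58, 0.27 and 0.80.

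Many contractile genes are known targets of serum response factor, which binds the CArG box (CC, then 6 bases of A or T, then GG, which reads the same on both strands as a pattern). A CArG box stood within 250 bases before the start of 6 of the 36 tested contractile genes with a RefSeq promoter window, 16.7%, and before that of 1.40% of the 8448 tested genes with a window. Of the 166 higher genes, 120 had a window and 5 of these a box, and of the 45 lower genes 26 had a window and none a box. Of the 6 contractile genes with a box, 4 rose, as did 27 of all 41 contractile genes tested. The share of the list with a box describes the promoters of its members and not the changes measured here. A part of serum response factor in these changes was not tested. Vcl, the adhesion protein vinculin (0.99, adjusted p = 3.5e-05), and Cnn2, a calponin (1.21, adjusted p = 0.0001), are shown as genes that rose and hold the box. Each stretch ends before the annotated start of its gene, and exons of other genes were not looked for. The stretches are at chr14:20979216-20979448 for Vcl and chr10:79824184-79824409 for Cnn2, GRCm39, plus strand, 5′ to 3′, from the same RefSeq table, with the box in capitals:
Vcl: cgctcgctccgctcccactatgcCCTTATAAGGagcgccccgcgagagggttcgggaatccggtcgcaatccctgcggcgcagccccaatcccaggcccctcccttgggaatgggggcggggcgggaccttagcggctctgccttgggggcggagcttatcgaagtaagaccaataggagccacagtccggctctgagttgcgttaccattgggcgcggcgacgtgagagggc
Cnn2: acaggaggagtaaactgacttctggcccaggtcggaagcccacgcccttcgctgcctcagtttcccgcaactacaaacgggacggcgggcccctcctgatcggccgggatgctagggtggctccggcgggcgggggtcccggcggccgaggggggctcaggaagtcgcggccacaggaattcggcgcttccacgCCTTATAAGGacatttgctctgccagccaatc
The letters TAATTA, a core that homeodomains bind, were found in the windows of 240 of the 8448 tested genes (2.84%), in 2 of the 120 higher and in 1 of the 26 lower genes. That core can lie inside a CArG box, which it did in 5 of all 32851 windows.

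**Figure D2:**
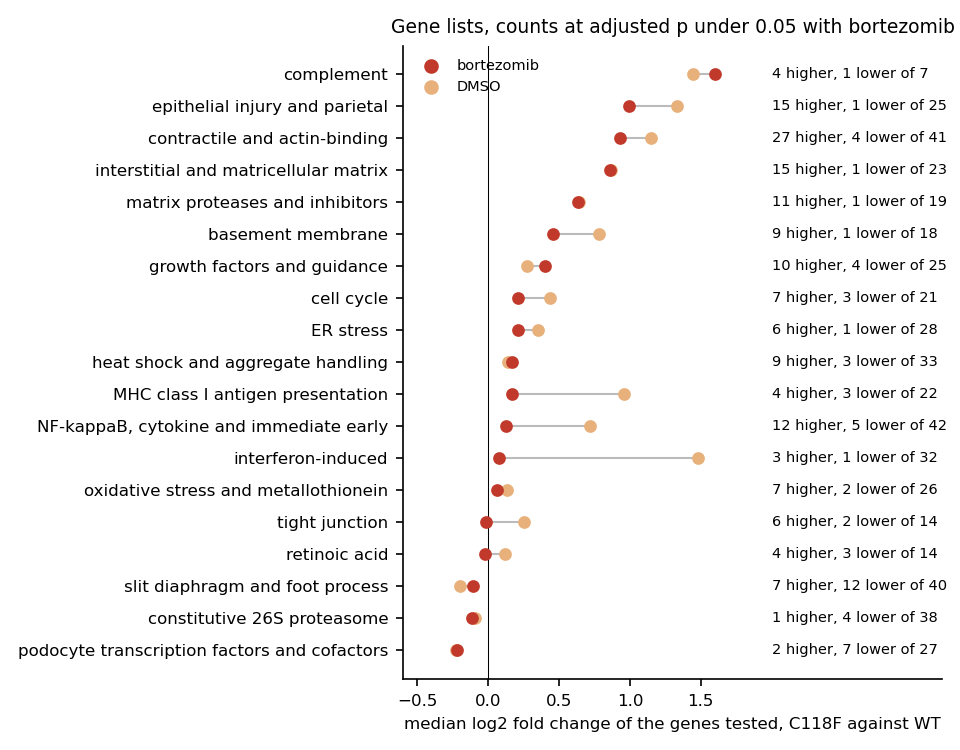
Median log2 fold change of the tested genes of each list, C118F against WT, with bortezomib (red, 5 C118F and 6 WT mice) and with DMSO (tan, 6 and 6 mice), beside the number of genes at an adjusted p under 0.05 with bortezomib. The contractile, matrix and injury lists lie to the right under both treatments for the members above the TPM minimum, and the interferon list at 0.08 with bortezomib and 1.48 with DMSO. With no minimum the interstitial matrix median was 0.09 with bortezomib and -0.10 with DMSO. The contractile medians were then 0.56 and 0.67, and the injury medians 0.46 and 0.50. Each median is over the genes tested with that treatment, which were 32 interferon genes with bortezomib and 39 with DMSO. Over the 32 tested with both, the interferon median with DMSO was 1.18.

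Basement membrane genes rose by chain. Col4a1 and Col4a2, the widespread chains of collagen IV, had 9.92 to 22.3 and 25.4 to 38.1 TPM in C118F and 0.713 to 4.31 and 1.13 to 7.26 TPM in WT mice. Their log2 changes were 2.5 ± 0.29 (adjusted p = 1.9e-05) and 2.93 ± 0.28 (adjusted p = 3.1e-06). These genes lie head to head on chromosome 8 and overlap by 356 bases on opposite strands. Col4a3, Col4a4 and Col4a5, whose chains form the collagen IV network of the mature glomerular basement membrane, did not pass, with -0.15, 0.20 and 0.21 (adjusted p = 0.65, 0.34 and 0.28). Lamb2, a laminin chain of the mature membrane, did not pass (0.17, adjusted p = 0.49). Over the 18 genes tested, 9 rose, 1 fell and 8 did not pass. With no TPM minimum 9 of all 29 listed rose and 1 fell.

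Interstitial and matricellular matrix genes were higher in 15 of 23 cases and lower in 1, with a median log2 change of 0.86. These 23 are the members above the TPM minimum. With no minimum 14 of all 50 listed were higher and the median was 0.09, and at a minimum of 5 TPM 7 of 15 were higher with a median of 0.53. Tgm2, the crosslinking enzyme transglutaminase 2, had 162, 198, 235, 173 and 224 TPM in C118F and 15.4 to 22.7 TPM in WT mice (3.36 ± 0.13, adjusted p = 8.9e-10), the lowest adjusted p of the comparison together with Dmpk. Ecm1, a secreted matrix glycoprotein, rose by 3.31 ± 0.26 (adjusted p = 4.3e-07) and Col5a3 by 2.34 ± 0.38 (adjusted p = 0.00033). Col16a1, a fibril-associated collagen, was listed at 0 in all 6 WT mice and had 2.72 to 11.8 TPM in C118F mice. Ccn1, an immediate early matricellular protein, was the gene that fell (by 0.90, adjusted p = 0.022), while Ccn2, its relative, rose by 0.86 (adjusted p = 0.00079).

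Of 19 matrix proteases and inhibitors, 11 were higher and 1 lower, with a median log2 change of 0.64, which was 0.20 with no TPM minimum. Plat, tissue plasminogen activator, was the gene that fell (by 0.51, adjusted p = 0.01). Timp1 and Timp2, inhibitors of matrix metalloproteinases, rose by 2.88 ± 0.28 and 1.14 ± 0.11 (adjusted p = 3.8e-06 and 3.6e-06), and Mmp2, a gelatinase, by 2.51 ± 0.38 (adjusted p = 0.00019).

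Markers of epithelial injury and of parietal cells were higher in 15 of 25 cases, 10 of them by more than 2 at an adjusted p under 0.001, and lower in 1. These 25 are the members above the TPM minimum, with a median log2 change of 0.99. With no minimum 15 of all 35 listed were higher and 2 lower, and the median was 0.46. Crct1, a cysteine-rich protein of the epidermis, was listed at 0 in every WT mouse and had 84.5, 245, 22.5, 28.3 and 532 TPM in C118F mice (adjusted p = 3.1e-06), so its log2 change rests on the pseudocount and is not given. Clu, the extracellular chaperone clusterin (chr14:66190200-66218999), had 316, 570, 469, 524 and 863 TPM in C118F and 5.28 to 18.6 TPM in WT mice (5.50 ± 0.27, adjusted p = 4.8e-09). Lgals3, galectin-3 (chr14:47605208-47623624), had 66.1, 213, 85.8, 177 and 152 TPM in C118F and 0.421, 1.94 and 11.8 TPM as the lowest, median and highest WT value (5.16 ± 0.57, adjusted p = 1.2e-05). The WT mice differed among themselves for Lgals3 and still lay below every C118F mouse.

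Des, the intermediate filament desmin that marks injured podocytes, had 347, 376, 712, 747 and 540 TPM in C118F and 24.3 to 54.7 TPM in WT mice (3.87 ± 0.23, adjusted p = 4.1e-08). Lgals1, galectin-1, rose by 3.61 ± 0.33 (adjusted p = 1.8e-06), S100a6, a calcium-binding protein, by 3.28 ± 0.39 (adjusted p = 2.6e-05), Cd63, a tetraspanin of late endosomes, by 2.51 ± 0.19 (adjusted p = 2.7e-07), and Cd44, the hyaluronan receptor, by 2.13 ± 0.27 (adjusted p = 4.5e-05). Cd9, another tetraspanin, rose by 2.21 (adjusted p = 0.0072). Krt7, a simple-epithelium keratin, was the gene that fell (by 1.88, adjusted p = 2.8e-05), with 6.70 to 17.1 TPM against 33.6 to 52.1 TPM.

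Other genes among the 12 largest rises were of muscle, adhesion and signalling. Dmpk, the myotonic dystrophy protein kinase (chr7:18817406-18827746), had 96.0, 136, 214, 266 and 138 TPM in C118F and 1.28 to 2.16 TPM in WT mice (5.91 ± 0.22, adjusted p = 8.9e-10). Itga7 and Itga11, integrin chains that bind laminin and collagen, rose by 5.54 ± 0.27 and 4.39 ± 0.33 (adjusted p = 4.8e-09 and 2.7e-07). Scara3, a scavenger receptor, rose by 5.77 ± 0.36 (adjusted p = 5.9e-08), and its annotated span overlaps that of Clu by 1202 bases on the opposite strand. Wfdc1, a secreted protease inhibitor-like protein, rose by 4.88 ± 0.42 (adjusted p = 1.2e-06), Camk2a, a calmodulin-dependent kinase, by 4.74 ± 0.26 (adjusted p = 2.7e-08) and P2rx5, an ATP-gated channel, by 4.40 ± 0.31 (adjusted p = 1.5e-07). For each of these 7 genes every C118F mouse lay above every WT mouse, which the rule for naming the largest rises required.

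Growth factors moved in both directions, with 10 of 25 higher and 4 lower. With no TPM minimum 9 of 50 were higher and 3 lower. Pdgfa, a platelet-derived growth factor, had 8.28, 5.91, 13.6, 10.4 and 7.22 TPM in C118F and at most 0.899 TPM in WT mice (2.63 ± 0.23, adjusted p = 1.4e-06). Tgfb3 rose by 2.02 ± 0.22 (adjusted p = 1.1e-05), Hbegf, an EGF receptor ligand, by 2.25 ± 0.33 (adjusted p = 0.00015), Wnt4 by 1.95 ± 0.24 (adjusted p = 3.3e-05) and Vegfb by 1.43 ± 0.14 (adjusted p = 4e-06). Vegfa, the podocyte factor that maintains the glomerular endothelium, fell by 1.17 (adjusted p = 0.0011), with 467 to 881 TPM against 956 to 2378 TPM, and Sema3g, a semaphorin made by podocytes, fell by 1.88 (adjusted p = 0.001). Igfbp7, an abundant secreted binding protein, rose by 1.25 (adjusted p = 0.00019).

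Complement genes were few, with 7 of the 26 listed tested, 4 higher and 1 lower. Besides Clu they were Serping1, the C1 inhibitor, which had 350, 741, 347, 376 and 840 TPM in C118F and 137 to 191 TPM in WT mice (1.62 ± 0.22, adjusted p = 8.5e-05), and the C1 proteases C1s1 (2.19 ± 0.34, adjusted p = 0.00027) and C1ra (1.6, adjusted p = 0.00033). Cd59a, which blocks the membrane attack complex, fell by 1.06 ± 0.13 (adjusted p = 3.3e-05). Of 14 tight junction genes, 6 were higher and 2 lower. Cldn1, the claudin of parietal epithelium, had 70.6 to 123 TPM against 16.8 to 29.8 TPM (2.22 ± 0.17, adjusted p = 4.4e-07), where Cldn5 had fallen. Jam2 rose by 1.80 ± 0.21 (adjusted p = 2e-05) and F11r, its relative, fell by 0.67 ± 0.08 (adjusted p = 3e-05).

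Cell cycle genes were higher in 7 of 21 cases and lower in 3. Plk2, a stress-induced kinase, rose by 3.17 ± 0.23 (adjusted p = 2.7e-07), and Cdkn1a, the inhibitor p21, had 16.3, 46.7, 24.7, 34.3 and 61.9 TPM in C118F and 2.25 to 14.0 TPM in WT mice (2.24 ± 0.38, adjusted p = 0.00052). The replication factors Mcm2, Mcm3 and Mcm5 rose by 0.80, 0.72 and 0.74 (adjusted p = 0.0029, 0.02 and 0.016), from a few TPM. Pcna and Cdk2 were tested and did not pass.

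Of 38 constitutive proteasome genes, which encode the drug's own target, 1 was higher (Psmd12, by 0.42 ± 0.10, adjusted p = 0.0047) and 4 were lower, against 12.4% lower over all genes, with log2 changes of these 4 from -0.49 for Psmb3 to -0.31 for Psmc3. The count of lower genes was 1 without C118F replicate 5, 2 without WT replicate 5, 8 without WT replicate 6 and 0 with mouse number as a covariate. The active-site subunit genes Psmb5, Psmb6 and Psmb7 did not pass. Of 33 heat shock and aggregate-handling genes, 9 were higher and 3 lower. Dnajb5, a co-chaperone, rose by 2.12 ± 0.26 (adjusted p = 2.7e-05), Hspb1, a small heat shock protein that binds actin, by 1.24 ± 0.17 (adjusted p = 9e-05), Hspb6, its muscle relative, by 1.39 ± 0.20 (adjusted p = 0.00013) and Bag3, which handles damaged filamin, by 1.10 ± 0.15 (adjusted p = 7e-05). The autophagy receptor Sqstm1 rose by 0.67 (adjusted p = 0.004) and the ubiquitin gene Ubb fell by 0.47 (adjusted p = 0.033).

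Genes of endoplasmic reticulum stress were higher in 6 of 28 cases and lower in 1. Hspa5, the chaperone BiP, rose by 0.90 (adjusted p = 0.033), Dnajb9 by 0.86 ± 0.21 (adjusted p = 0.0068) and Asns, a target of ATF4, by 1.72 ± 0.30 (adjusted p = 0.00064). Atf4 and Xbp1 did not pass. Among 26 genes of oxidative stress, 7 were higher and 2 lower. Nfe2l1, the factor that raises proteasome genes when the proteasome is inhibited, rose by 0.76 ± 0.10 (adjusted p = 8.2e-05), with 927 to 1185 TPM against 564 to 704 TPM. Gpx3, a secreted glutathione peroxidase, had 7147 to 10726 TPM against 1607 to 6727 TPM (1.64 ± 0.33, adjusted p = 0.0022) and Ftl1, a ferritin chain, 5111 to 6882 TPM against 2352 to 3777 TPM (1.00 ± 0.15, adjusted p = 0.00021).

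Interferon-induced genes mostly did not pass with bortezomib. Of 32 tested, 3 rose, 1 fell and 28 did not pass, with a median log2 change of 0.08. The members that rose were Gbp2, a guanylate-binding protein (1.05 ± 0.17, adjusted p = 0.00041), Bst2, tetherin (1.07 ± 0.19, adjusted p = 0.00082), and Cmpk2, a mitochondrial kinase (1.05 ± 0.21, adjusted p = 0.0016), and Ifitm2, a membrane protein that blocks virus entry, fell by 0.54 ± 0.12 (adjusted p = 0.0035). Irf7, the regulator of the interferon response, was under the TPM minimum and was not tested, with 0.833, 1.81, 1.04, 1.24 and 3.53 TPM in C118F and 0.746 to 1.95 TPM in WT mice. Stat2, Isg15 and Ifit1 did not pass.

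Class I antigen presentation genes were higher in 4 of 22 cases and lower in 3, against 15.1% higher and 12.4% lower over all genes. B2m, the common light chain (chr2:121977957-121983594), had 9307, 4989, 2678, 2544 and 3099 TPM in C118F and 1159 to 1840 TPM in WT mice (1.40 ± 0.28, adjusted p = 0.002), and H2-K1, a classical heavy chain, rose by 1.00 ± 0.18 (adjusted p = 0.00084). H2-T23 rose by 0.93 ± 0.18 (adjusted p = 0.0018) and H2-D1 by 0.83 (adjusted p = 0.0089). Psmb9, an immunoproteasome subunit, was lower, by 0.72 (adjusted p = 0.038), as were H2-Q6 and H2-Q7, whose separate values are uncertain. The other 15 of 22 genes, with Psmb8, Tap1 and Tap2 among them, did not pass.

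Of 42 genes of NF-κB, cytokines and the immediate early response, 12 were higher and 5 lower. Over all genes tested 15.1% were higher and 12.4% lower. Nfkb2 and Relb, of the alternative NF-κB pathway, rose by 1.77 ± 0.15 and 0.88 (adjusted p = 1.1e-06 and 0.0025). Tnfrsf12a, the TWEAK receptor, had 652, 577, 993, 869 and 719 TPM in C118F and 119 to 426 TPM in WT mice (2.02 ± 0.26, adjusted p = 5.1e-05). Csf1, a macrophage growth factor, rose by 2.41 ± 0.36 (adjusted p = 0.00016). All 5 that fell were immediate early genes, Fos, Jun, Junb, Jund and Dusp1, with log2 changes between -1.6 for Dusp1 and -0.46 for Jund. The count of lower genes was 8 without WT replicate 1, 2 without WT replicate 2 or 4, and 3 without WT replicate 3 or without C118F replicate 2, 3 or 4. With mouse number as a covariate 6 were higher and 2 lower. Rela, Nfkb1 and Nfkbia did not pass, and neither did the immediate early genes Egr1, Ier2 and Fosb.

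The same genotype comparison was made in other mice that had received DMSO, the solvent, in place of the drug. With DMSO 178 genes were higher (1.63%) and 69 lower (0.633%) of 10899 tested by the strict rule, and 13.7% and 16.6% at an adjusted p under 0.05. Of the 178 and 69, 172 and 63 were also tested with bortezomib, and 114 (66.3%) and 34 (54.0%) of these were called there too. They make up 68.7% of the 166 and 75.6% of the 45 genes called with bortezomib. At an adjusted p under 0.05, 167 of the 172 were higher and 62 of the 63 lower with bortezomib. Of the genes called with bortezomib and not with DMSO, 49 higher and 10 lower ones were tested with DMSO. An adjusted p under 0.05 with DMSO was reached by 46 and 9 of these, so most differ between treatments only by the strict call. No mouse is shared between these comparisons.

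**Figure D3:**
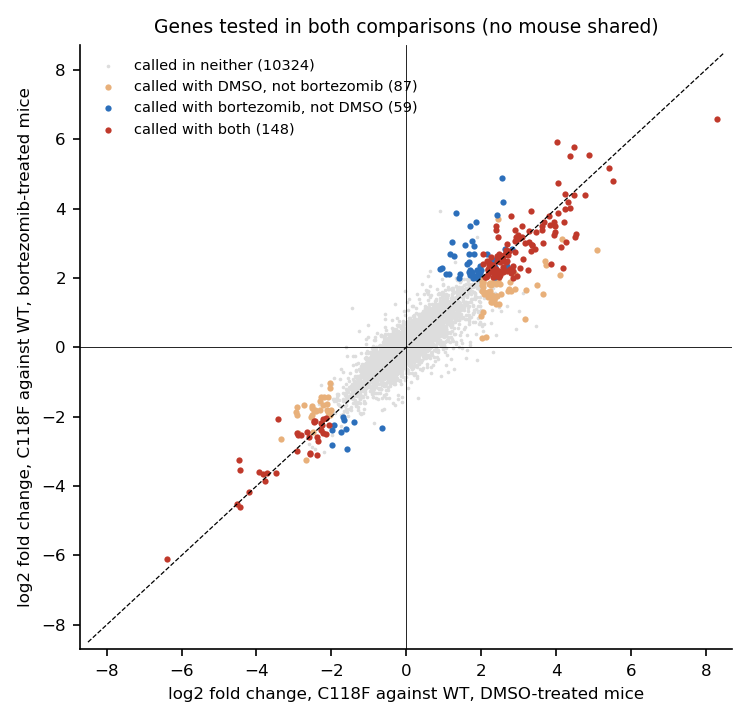
Log2 fold change of C118F against WT for each of 10618 genes tested in both, with DMSO on the horizontal and bortezomib on the vertical axis, coloured by the strict call (adjusted p under 0.001 and absolute log2 change above 2). The 148 genes called with both treatments lie along the dashed line of equal change, and 59 were called with bortezomib alone and 87 with DMSO alone.

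Taking the genes called in DMSO mice, each bortezomib-treated mouse could be placed without using its own calls. Over the 172 genes higher with DMSO, the median difference from the WT mice was 2.27, 2.63, 2.15, 2.28 and 2.7 in the 5 C118F mice and between -0.19 and 0.21 in the 6 WT mice, each WT mouse being set against the other 5. Over the 63 lower genes it lay between -2.43 and -2.19 in C118F and between -0.27 and 0.13 in WT mice. No C118F mouse came near the WT mice. The median log2 change of the 172 genes was 2.58 with DMSO and 2.33 with bortezomib, and it was smaller with bortezomib for 127 of them. For the 63 it was -2.48 and -2.18, smaller in size with bortezomib for 49. A fall in size is partly built in here, since the genes were chosen for large values with DMSO.

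Whether the genotype difference depended on the drug was tested over 4 groups and 23 mice as the log2 change with bortezomib minus that with DMSO. No gene of 11197 passed an adjusted p under 0.05 in limma, the lowest being 0.47. At an unadjusted p under 0.05 there were 560, of which 342 were higher (3.05% of those tested) and 218 lower (1.95%). With voom, limma's test for counts, on recovered reads there were 528 at that p and 0 after adjustment, and with array weights 1 gene passed, Lgals3bp (adjusted p = 0.0308). The count at that unadjusted p was 984 with array weights, 1075 with mouse number as a covariate and 698 with all mice in 1 fit. After adjustment none passed with mouse number or with all mice in 1 fit. For Cldn5 the difference between treatments was 0.00, with a 95% confidence interval from -0.71 to 0.71, for Cdkn1c -0.16 (-0.86 to 0.53), for Cyp26a1 0.31 (-0.45 to 1.06), for Tagln -0.13 (-1.05 to 0.79) and for Flna 0.12 (-0.57 to 0.82).

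Among the 5 genes called lower with DMSO whose change was smallest with bortezomib were Nsf, a factor of membrane fusion (-2.04 with DMSO, -1.03 with bortezomib), and Tdrd5 (-2.26 and -1.43). Those called higher with DMSO and of the smallest change with bortezomib were Lgals9, galectin-9 (2.03 and 0.28), Lgals3bp, a galectin ligand induced by interferon (2.14 and 0.28), the chemokine Cxcl1 (3.18 and 0.81), Phgdh, an enzyme of serine synthesis (2.01 and 0.91), and Chrd, an antagonist of bone morphogenetic proteins (2.05 and 1.01). Lgals9, Lgals3bp, Cxcl1 and Phgdh did not pass with bortezomib. For Lgals3bp the test of the difference gave -1.86 (95% confidence interval -2.65 to -1.07), an unadjusted p of 6.1e-05 and an adjusted p of 0.47 in limma. Dmpk had the opposite sign, at 4.02 with DMSO and 5.91 with bortezomib (difference 1.89, 1.04 to 2.74, adjusted p = 0.47).

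Interferon-induced genes were counted with both treatments over the 32 members tested with each, since further members passed the TPM minimum only with DMSO. With DMSO 21 of the 32 were higher at an adjusted p under 0.05 and none lower, with a median log2 change of 1.18, and with bortezomib 3 were higher and 1 lower, with a median of 0.08. With no minimum 18 of 58 were higher with DMSO and 4 with bortezomib, with medians of 1.04 and 0.09. In the test of the difference no member passed after adjustment (lowest adjusted p = 0.47), and 19 of the 32 had an unadjusted p under 0.05 in the lower direction, against 1.95% of all genes. Members of the list are induced together, so that count does not hold 19 independent results. Irf7 had 2.92 to 28.4 TPM in C118F mice with DMSO and 0.764 to 1.58 TPM in their WT controls, a log2 change of 2.22 (adjusted p = 0.0022), where the bortezomib groups overlapped. Gbp2 had a log2 change of 3.01 with DMSO and 1.05 with bortezomib, and its C118F mice with DMSO ranged from 88.9 to 1663 TPM. Of 22 class I antigen presentation genes, 13 were higher with DMSO and 4 with bortezomib, with medians of 0.96 and 0.17, and 11 had an unadjusted p under 0.05 in the lower direction, none of which passed after adjustment. Over the 40 contractile genes tested with both treatments the medians were 1.15 and 0.91, with 3 genes in that direction.

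**Figure D4:**
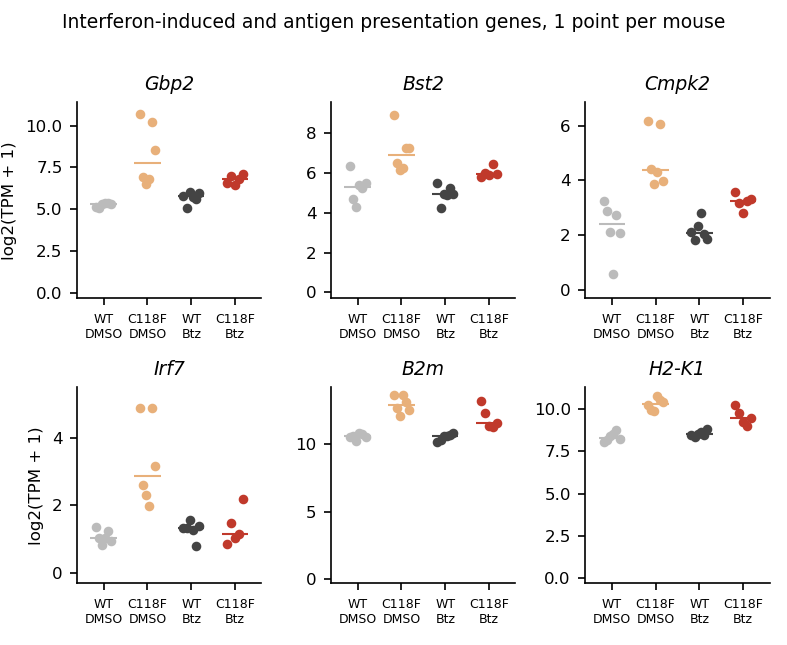
Level of 4 interferon-induced and 2 class I antigen presentation genes on the log2(TPM + 1) scale, 1 point per mouse with a line at the group median, for WT and C118F mice with DMSO and with bortezomib (Btz). The median of the C118F mice with DMSO is the highest of the 4 groups for every gene shown, while C118F and WT mice with bortezomib overlap for Irf7 and Cmpk2.

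The second knock-in line carries a substitution in the other LIM domain, H77L in LIM-A, over the same floxed allele. H77L mice with bortezomib were compared with the same 6 WT mice, so both lines share their controls and only side-by-side values are given. By the strict rule 100 genes were higher (0.925%) and 30 lower (0.278%) in H77L mice. Of the 166 genes higher in C118F mice, 148 were tested in H77L mice and 147 were higher there at an adjusted p under 0.05, as were 12.5% of all genes tested in H77L mice, and of the 45 lower genes 43 were lower, as were 11% of all genes. The median log2 change of the genes called in C118F mice was 2.54 and -2.53 in C118F and 2.10 and -2.05 in H77L mice. The C118F values chose these genes, so the smaller H77L medians are a description.

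Tested directly, C118F mice had 77 genes higher (0.713%) and 28 lower (0.259%) than H77L mice at an adjusted p under 0.05. Of the 77, 68 were also higher in C118F than in WT mice and 42 were higher than WT in both lines. Csrp1, the LIM protein of actin bundles, differed by 1.09 and Lgals3 by 3.07 (adjusted p = 0.0012 for both), Mustn1 by 1.75 (adjusted p = 0.0016) and Retreg1, a receptor for autophagy of the endoplasmic reticulum, by 0.98 (adjusted p = 0.0026). Lgals3 had 5.66 to 21.9 TPM in H77L and 66.1 to 213 TPM in C118F mice, with no overlap. Cdkn1c (-1.14, adjusted p = 0.027) and Cldn5 (-0.91, adjusted p = 0.046) were lower in C118F mice than in H77L mice. The number of these calls depended strongly on single mice, and without C118F replicate 1 it was 204 higher and 75 lower and without C118F replicate 4 it was 30 and 5.

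For other genes the lines could not be told apart. The difference was 0.00 for Flna (95% confidence interval -0.31 to 0.32), 0.08 for Tgm2 (-0.14 to 0.31) and -0.17 for Tagln (-0.75 to 0.42). Of 33 heat shock genes, singled out after their values were seen, 4 were lower in C118F than in H77L mice, with a list median of -0.13. Dnajb1 had a log2 change against WT of 0.32 in C118F and 2.82 in H77L mice, and the lines differed by -2.5 (adjusted p = 0.01). Hspa1a and Hspa1b, near-identical copies whose reads may be split, differed by -2.36 and -2.79 (adjusted p = 0.025 and 0.024), and the mice of both lines overlapped.

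**Figure D5:**
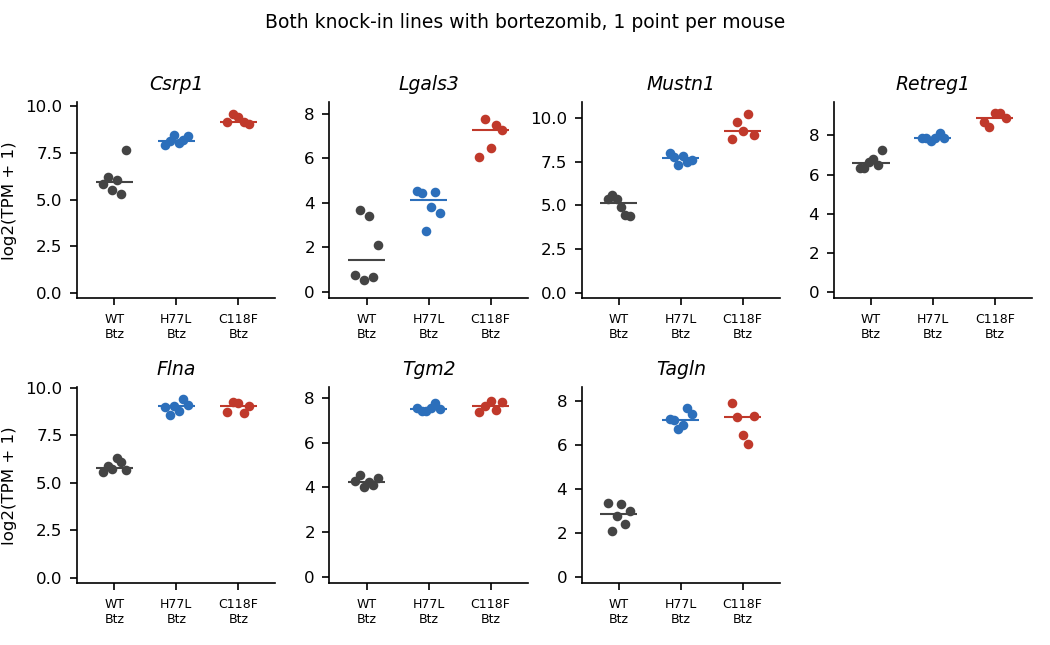
Level of 7 genes on the log2(TPM + 1) scale in WT (6), H77L (6) and C118F (5) mice with bortezomib (Btz), 1 point per mouse with a line at the group median. Csrp1, Lgals3, Mustn1 and Retreg1 are higher in every C118F than in every H77L mouse, whereas both lines overlap for Flna, Tgm2 and Tagln.

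Markers of other cells were examined as whole lists. Of 23 leukocyte markers 2 passed the TPM minimum, and 10 were at 0 in all 11 mice. The summed level of the list was 16.9 to 22.7 TPM in C118F and 3 to 16.5 TPM in WT mice. Csf1r rose by 1.69 ± 0.26 (adjusted p = 0.00026) and Cd68 by 1.82 ± 0.40 (adjusted p = 0.0038). Csf1r starts 11580 bases beyond the end of Pdgfrb on the same strand of chromosome 18, and Pdgfrb, the receptor of pericytes and mesangial cells, had 4.34 to 19.9 TPM in WT and 140, 252, 70.9, 119 and 258 TPM in C118F mice (3.51 ± 0.38, adjusted p = 1e-05). With the defining leukocyte marker Ptprc at or near 0 in every mouse, the part of leukocytes or of Pdgfrb reads in the Csf1r value was not tested.

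Of 16 mesangial and smooth muscle markers, 6 were tested, 5 rose and 1, Agtr1a, fell (by 1.44 ± 0.30, adjusted p = 0.0023). With no TPM minimum 4 of all 16 rose and 1 fell, with a median log2 change of 0.08. Des is on this list and on the injury list, and the summed level was 524 to 899 TPM in C118F and 52.1 to 90.3 TPM in WT mice. The part of sorted mesangial cells in the matrix and contractile genes was not tested. Parietal cell markers were higher in 3 of 6 cases (Cldn1, Cd44 and Akap12), summing to 234 to 362 TPM against 139 to 207 TPM. With no TPM minimum 3 of all 12 listed were higher and 1 lower, with a median log2 change of -0.03. Of 20 endothelial markers 2 passed the minimum, and Plat, which podocytes express, fell, while Pecam1 was at most 1.23 TPM in C118F and 3.16 TPM in WT mice. No red cell marker passed it.

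Of 26 tubule markers, 6 passed the TPM minimum, 3 of which were lower in C118F mice and 1 higher. The summed level of all 26 overlapped between the groups, at 45.1 to 1754 TPM in WT and 20.3 to 107 TPM in C118F mice. The count of lower markers was 1 without C118F replicate 4 or WT replicate 5, 8 without WT replicate 3, 6 without WT replicate 6, 1 with voom or with mouse number and 0 with all mice in 1 fit. Pvalb fell by 2.58 ± 0.40 (adjusted p = 0.00026), Cdh16 by 1.84 ± 0.56 (adjusted p = 0.025) and Fxyd2 by 2.15 ± 0.70 (adjusted p = 0.033). Cubn, the endocytic receptor cubilin, was the one tested marker that rose, with 5.89, 3.06, 9.43, 13.3 and 2.80 TPM in C118F and 0.0428 to 1.56 TPM in WT mice (2.32 ± 0.35, adjusted p = 0.00018). Its partner Lrp2 was at most 0.169 TPM in the C118F mice. The part of tubule cells in the genes called lower was not tested. All 11 mice had Xist between 8.46 and 28.2 TPM, and Y-linked genes were at most 0.415 TPM.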

How the data were processed

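The deposited table gives TPM per gene and mouse for 33292 Ensembl genes and 35 mice. Per the labels and the study's methods, the authors trimmed single-end poly(A) reads with Trim Galore 0.6.7, aligned them to GRCm39 with STAR, counted them with featureCounts 1.6.3 and scaled the counts to TPM, which sums to 1000000 in each mouse. STAR was set to keep 1 random position for reads that fit several, so near-identical genes share reads. Names and positions are from GENCODE vM39, where 32776 identifiers were found. No column was left unused.

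Values were taken as log2(TPM + 1) and fitted with limma 3.58.1 in R 4.3.3 (lmFit, eBayes with an intensity trend, two-sided), on the mice compared, for genes at over 1 TPM in all mice of some group compared. The study tested counts with DESeq2, which TPM does not allow, while its cutoffs (adjusted p under 0.001, absolute log2 change above 2) were kept. A log2 change on this scale understates that of low genes. Mice are the replicates, and the labels number them without pairing them. Groups are those of the labels. The fits were tested on simulated data before use. Depth was estimated from whole reads recovered from the TPM steps, for 88.7% of the genes above 0 in any mouse, within 0.02 reads of a whole number. Counting error was not used, since PCR copies are not separate molecules, and all errors are spreads between mice.

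The comparison, the gene lists and the genes named were chosen with earlier results of these data known. Named by rule were the 12 largest rises and falls without overlap, 12 genes followed up in the study, up to 4 members per list with the lowest adjusted p and any past the strict rule, and the 5 genes at either end of the comparisons with DMSO and H77L. Some of these are not reported here. Other genes named were chosen after their values were seen. Alternatives were another pseudocount (0.1), no filter and a TPM minimum of 5, no trend, a robust prior, array weights, quantile normalization, all mice in 1 fit, mouse number or Xist as a covariate, a looser call, leaving out each mouse, and, added after seeing the data, voom on the recovered reads. Figures and tables were made in Python 3.11.15 with pandas 2.3.3 and matplotlib 3.10.9.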

Additional observations from a re-analysis of the deposited data

Results flagged for a closer look

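In 15 of 246 groups of 5 or 6 bortezomib-treated mice (6.10%), 1 mouse lay apart from the rest of its group for a gene among those chosen by the rule for named genes, by a gap beyond Dixon's 95% critical value, which chance gives in about 1 in 20 groups. Among C118F mice these were replicate 1 for Lmx1b (67.5 TPM) and Vegfb (60.3 TPM), replicate 2 for Cyp26a1 (2.06 TPM) and BB014433 (8.43 TPM), replicate 3 for Synpo (836 TPM), and replicate 5 for Camk2a (24.7 TPM), Psmg1 (36.7 TPM) and Lhfpl6 (10.4 TPM). Among WT mice they were replicate 1 for S100a6 (97.5 TPM) and Nsf (46.6 TPM), replicate 2 for Cubn (1.56 TPM), replicate 3 for H2-Q7 (237 TPM) and H2-Q6 (361 TPM), replicate 5 for Irf7 (0.746 TPM), and replicate 6 for Cd59a (2284 TPM).

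For 19 named genes the effects of the knock-in lines differed at an adjusted p under 0.05 in limma, given here as the log2 difference of C118F minus H77L mice with bortezomib. Higher in C118F mice were Lgals3 (3.07), Mustn1 (1.75), Itga7 (1.71), S100a6 (1.41), Clu (1.40), Pdgfa (1.36), Csrp1 (1.09), Rdh10 (1.03), Retreg1 (0.985), Tes (0.919), Col4a2 (0.909), Lgals1 (0.867), Dnajb9 (0.802) and Cd63 (0.692). Lower in C118F mice were Cdkn1c (-1.14), Cldn5 (-0.911), Hs3st6 (-0.678), Synpo (-0.530) and Psmg1 (-0.478). How far the count of such genes depends on single mice is given with the alternatives.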

How the results depend on the processing

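Leaving out each mouse in turn gave 150 to 176 genes higher and 42 to 50 lower in C118F than in WT mice with bortezomib by the strict rule, and the other alternatives apart from the call rule 132 to 223 and 35 to 53. With a looser rule (adjusted p under 0.05, log2 change above 1) the counts were 681 and 330 with bortezomib, 729 and 380 with DMSO, and 447 and 236 for H77L mice, and 492 and 216 genes were called with both treatments. At an adjusted p under 0.05 with mouse number as a covariate, 995 genes were higher, and voom on recovered reads called 153 genes higher in H77L mice. C118F replicates 3, 4 and 5 with bortezomib were mice 50091, 50095 and 50096, above the highest WT number of 48986. Mouse number is thus in part confounded with genotype, and the effects of the 2 cannot be fully told apart. Array weights gave 1 gene with a lower response to bortezomib in C118F mice.

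The comparison of C118F with H77L mice (77 higher, 28 lower) varied most. It gave 135 and 59 with Xist as a covariate, 25 and 5 with all mice in 1 fit, 245 and 103 with array weights, 18 and 6 with mouse number, 9 and 4 with no filter, and 41 and 10 with no intensity trend. Leaving out a mouse gave 30 to 204 and 5 to 75, the extremes without C118F replicates 4 and 1. It was 49 and 10 without C118F replicate 3, and 34 and 5, 40 and 9 and 31 and 7 without H77L replicates 2, 4 and 6. Without H77L replicate 3, 17 genes were lower. The causes were not tested.

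Of 2757 alternative values for 126 named genes, 2690 kept their direction and their side of an adjusted p of 0.05, 56 no longer passed, 9 newly passed and 2 changed sign, Lmx1b with mouse number (-0.009639) and Lgals3bp with array weights (-0.029245), neither of which passed before. The median of the tight junction list changed sign under 10 of 22 settings, of the retinoic acid list under 9, of the NF-κB list under 4, and of the interferon, heat shock, complement and parietal lists under 1 each. No paired analysis was possible because the labels give mouse numbers but no pairing. With Xist as a covariate 5 heat shock, 2 endoplasmic reticulum stress and 5 interferon genes were higher (9, 6 and 3 before), and with mouse number 5 heat shock, 2 endoplasmic reticulum stress and 5 basement membrane genes (9 before for the last). How depth limits these values was not tested, since the fits use no counting error.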
